A study of Mus musculus with 6 samples.

Results

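The collagen genes were taken as all genes whose symbol is Col, a number, the letter a and a number. They were 44 of the 39174 genes in the expression tables. RNA was sequenced from whole sciatic nerves of 3 wild-type mice (nerves 2, 4 and 5) and 3 Plekhg5-/- mice (nerves 2, 3 and 5), with no further treatment in either group. The sample records call the animals adult, and the text of the study gives an age of 12 months. Plekhg5 encodes a guanine nucleotide exchange factor described as an activator of NF-κB, and no driver that would limit its loss to a cell type is named for these animals. The construct, the genetic background and the sex of the animals are not stated in the sources read. The question was whether the collagen transcripts of the nerve differ between the genotypes, and whether fibrillar, basement membrane and type VI chains do so alike.

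Collagens are secreted proteins of 3 chains wound into a triple helix. Fibrillar collagens (types I, II, III, V, XI, XXIV and XXVII) form or regulate the fibrils that give the nerve its tensile strength, type IV collagen forms the sheet-like network of the basement membranes around Schwann cells, perineurial cells and vessels, and type VI collagen forms beaded microfilaments that link the fibrils to the basement membranes. FACIT collagens sit on fibril surfaces, multiplexins such as types XV and XVIII lie at basement membranes, and others are transmembrane proteins or short network-forming chains. In peripheral nerve the main producers are fibroblasts, perineurial cells and Schwann cells. The 44 genes comprised 11 fibrillar, 6 type IV, 6 type VI, 9 FACIT, 2 multiplexin, 4 transmembrane, 3 short-chain network and 3 other genes (Col7a1, Col26a1 and Col28a1).

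The stretches upstream of the start sites of Col6a3 and Col6a5 are shown. Both chains were lower in every deficient nerve, and their starts in RefSeq are those of their loci in the expression data. They also had the smallest p-values of the type VI chains in the comparison of genotypes. Both are the 250 bases before the start in RefSeq (GRCm38.p6), read 5′ to 3′ on the minus strand, at chr1:90843972-90844221 and chr9:105960644-105960893. Capitals mark matches, on either strand, to the TATA box (TATAAA), the CCAAT box (CCAAT) or the GC box (GGGCGG), motifs that do not overlap here.
Col6a3: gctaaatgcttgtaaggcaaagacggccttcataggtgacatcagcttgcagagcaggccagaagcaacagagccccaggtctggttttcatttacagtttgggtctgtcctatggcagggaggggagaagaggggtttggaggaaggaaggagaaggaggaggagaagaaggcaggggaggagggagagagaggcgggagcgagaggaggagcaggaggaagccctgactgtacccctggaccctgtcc
Col6a5: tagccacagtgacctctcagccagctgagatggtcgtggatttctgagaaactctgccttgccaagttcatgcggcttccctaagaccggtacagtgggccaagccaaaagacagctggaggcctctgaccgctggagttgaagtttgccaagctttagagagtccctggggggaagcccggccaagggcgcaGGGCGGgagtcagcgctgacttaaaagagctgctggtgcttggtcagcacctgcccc
The Col6a3 stretch held 0 matches, and the Col6a5 stretch held 1, to GGGCGG. Of 32817 upstream windows of the same length, 32.7% held GGGCGG, and so did 21 of the 35 collagen genes with a window in the table. TATAAA was in 12.4% of all windows and in 5 of the 35, and CCAAT was in 33.8% and in 12 of the 35. A match is a run of letters and not evidence that a factor binds there.

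Values are FPKM, fragments per kilobase of transcript, relative to library size, divided by a factor per library that aligns the libraries at their typical gene. Plekhg5 itself was at 3.65, 4.13 and 5.26 FPKM in the wild-type and at 0.141, 0.14 and 0.0521 FPKM in the deficient nerves, in the order of their numbers (log2 difference -2.26, adjusted p = 0.0380 by limma), so the labels and the transcript match. Schwann cell markers were abundant in every library (summed level of 10 genes 10896 to 19689 FPKM). Both libraries numbered 5 stood apart. Haemoglobin transcripts were 15.98% of all FPKM in deficient nerve 5 and at most 2.56% elsewhere, skeletal muscle markers were highest there, and T-cell and B-cell markers were high in wild-type nerve 5 alone (142 and 115 FPKM summed, against at most 9.14 and 5.69). Several collagen results are therefore also given without both. Estimates without both are not given for the processing, receptor and marker genes.

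Of the 44 collagen genes, 40 reached a mean of 0.1 FPKM in either genotype and were tested. None passed an adjusted p of 0.05 over all 21285 genes tested with limma, where 8 genes (0.0376%) did, and the smallest adjusted p among the collagens was 0.488, for Col6a5. On simulated data the same fit called 9 of 80 genes with a log2 change of 1. The lack of calls therefore does not show that changes of this size are absent. At an unadjusted p under 0.05, 7 collagen genes were lower in Plekhg5-deficient nerves (Col6a5, Col26a1, Col6a3, Col2a1, Col6a2, Col9a2 and Col6a1) and 1 was higher (Col5a2), beside 2.69% lower and 2.41% higher among all genes tested. With FPKM as deposited, without scaling between libraries, the shares over all genes were 3.54% lower and 1.12% higher, and the collagen counts were 7 and 0. After scaling to the sum without haemoglobin, mitochondrial and muscle genes they were 3.55% and 1.44%, again with 7 and 0 collagens.

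Among those tested, 8 collagen genes had all 3 Plekhg5-deficient values below all 3 wild-type values, and 1 had them above. Over all genes tested these patterns held for 5.88% and 5.69%. Over all 44 genes the log2 fold change was below 0 for 26 and above 0 for 18, with a median of -0.14 beside 0.0065 over all genes tested. The classes differed in where their members lay: the median was -0.64 for type VI, -0.25 for fibrillar and -0.051 for type IV chains. The members and classes were chosen with results of these data known, so no test was made over any of these lists.

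**Figure D1:**
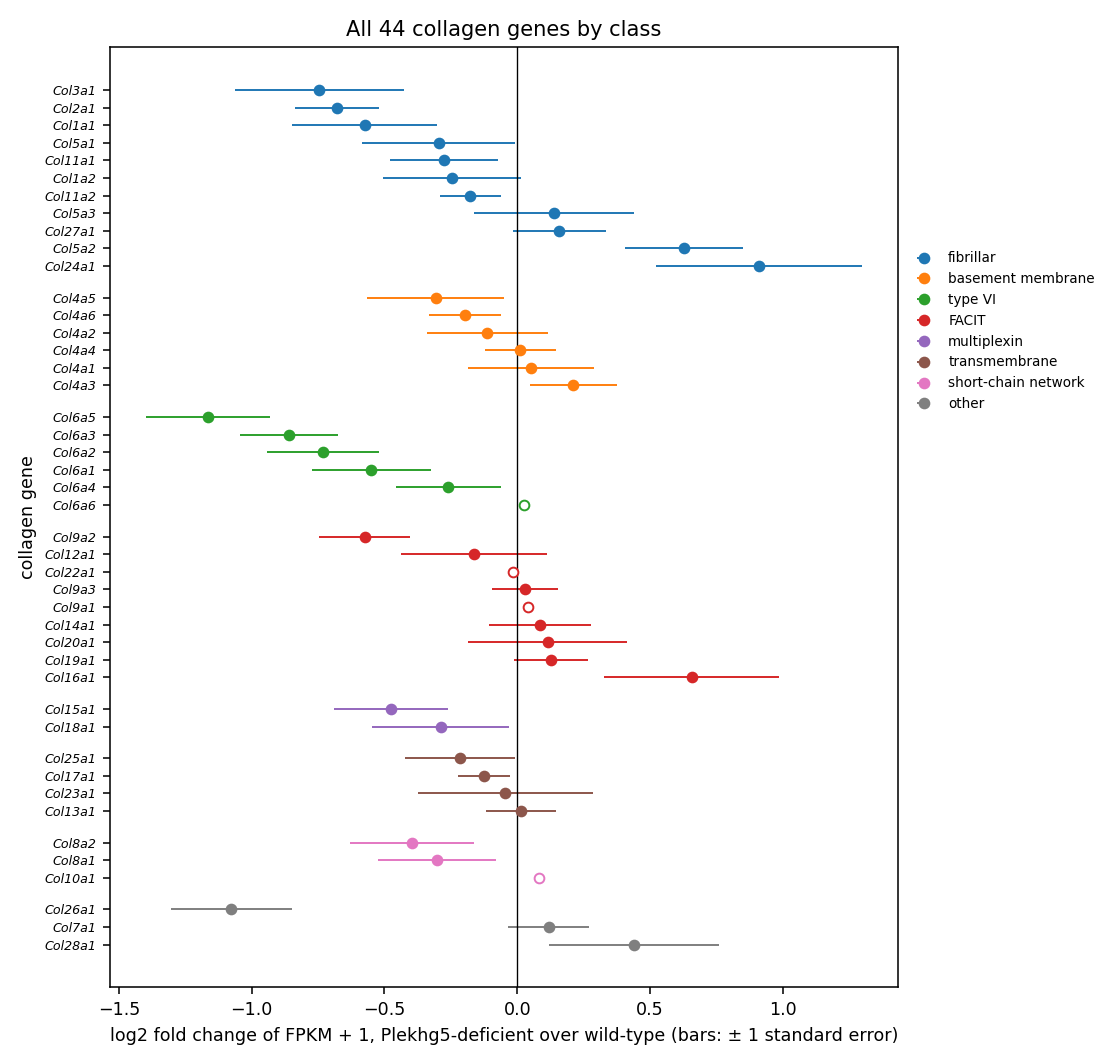
Log2 fold change of FPKM + 1 (Plekhg5-deficient over wild-type, horizontal axis) for each of the 44 collagen genes, grouped and coloured by class. Bars are ± 1 standard error from limma, and open circles are the 4 genes below the expression limit. All 5 type VI chains that were tested lie left of 0, from -1.16 to -0.26, while the 6 type IV chains lie on both sides of it, from -0.31 to 0.21.

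Of the 5 type VI chains tested, 4 were lower in deficient nerves at an unadjusted p under 0.05, more than in any other class, and none passed the adjusted p. Col6a1, Col6a2 and Col6a3 encode the 3 chains of the usual type VI heterotrimer, and Col6a4, Col6a5 and Col6a6 encode chains that can take the place of Col6a3. Col6a3 (chromosome 1, 90765923 to 90843971) had 23.3, 32.7 and 25.2 FPKM in wild-type and 14.4, 13.3 and 15.3 FPKM in deficient nerves, in the order of the nerve numbers as in all such lists here. The groups did not overlap, and the deficient nerves lay close to one another. The mean was 27.1 ± 5.0 FPKM in wild-type and 14.3 ± 1.01 FPKM in deficient nerves (SD, n = 3 nerves), 1.89-fold lower. On the log2 scale the difference was -0.86 (standard error 0.18, adjusted p = 0.540 by limma), and it was -0.97 without both libraries numbered 5. The intervals that Cufflinks gave for each library also stayed apart, with the highest upper limit in deficient nerves at 17.8 FPKM and the lowest lower limit in wild-type nerves at 20.9 FPKM.

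Col6a2 (chromosome 10, 76595762 to 76623630) had 28.5, 38.5 and 42.8 FPKM in wild-type and 24.4, 21.5 and 18.4 FPKM in deficient nerves. All 3 deficient values lay below the lowest wild-type value, though deficient nerve 2 and wild-type nerve 2 were near each other. The Cufflinks intervals stayed apart by a narrow margin, at no more than 25.9 FPKM in deficient and no less than 27.0 FPKM in wild-type nerves. The estimate was -0.73 on the log2 scale (standard error 0.21, adjusted p = 0.785 by limma), and -0.53 without both libraries numbered 5, where its p before adjustment was no longer under 0.05. The same held with the shared nerve numbers as a block, where the estimate was -0.69. Col6a1 (chromosome 10, 76708792 to 76726168) had 26.1, 34.9 and 42.0 FPKM in wild-type and 26.9, 21.2 and 20.4 FPKM in deficient nerves. Here the groups overlapped, since deficient nerve 2 lay above wild-type nerve 2. For Col6a1 the log2 difference was -0.55 (standard error 0.22, adjusted p = 0.972 by limma). Its p before adjustment, just under 0.05 in the full set, was above 0.05 without wild-type nerve 4, wild-type nerve 5, deficient nerve 3 or deficient nerve 5. It was also above 0.05 with upper quartile scaling, with array weights and with the shared nerve numbers as a block. Without both libraries numbered 5 the estimate for Col6a1 was -0.34.

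Col6a5 (chromosome 9, 105858668 to 105960643), an alternative to Col6a3 whose upstream stretch is printed above, was the least abundant of the 4 and had the largest ratio. Levels were 1.73, 3.60 and 2.34 FPKM in wild-type and 0.743, 0.479 and 0.443 FPKM in deficient nerves. Every deficient value was below the lowest wild-type value. The mean was 2.56 ± 0.951 FPKM against 0.555 ± 0.164 FPKM (SD, n = 3 nerves), 4.61-fold lower. The log2 fold change on FPKM + 1, which understates the change of genes this low, was -1.16 (standard error 0.23, adjusted p = 0.488 by limma), and it was -1.99 with a pseudocount of 0.1. The Cufflinks intervals of the genotypes stayed apart for Col6a5, at no more than 0.888 FPKM in deficient and no less than 1.54 FPKM in wild-type nerves. Without both libraries numbered 5 the log2 fold change was -1.19. Col6a5, Col2a1 and Col26a1 are also named in the study's own supplementary table, made from the same libraries, so the values here are no independent evidence for them. The study compared the genotypes with the Cufflinks package, and its text lists Col26a1 among the transcripts it called downregulated (q under 0.05). From published data on isolated cells, the study placed Col26a1 among those enriched in Schwann cells. The adjusted p-values here come from limma on FPKM, a different test.

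The other chains of this class were barely present. Col6a4 was between 0.0344 and 0.725 FPKM in wild-type and between 0.00764 and 0.177 FPKM in deficient nerves, with overlap. Col6a6 was at no more than 0.0793 FPKM in any library and was not tested. Col6a6, Col6a5 and Col6a4 lie in a row on the minus strand of chromosome 9, with gaps of 30.6 and 28.8 kb, and Col6a2 and Col6a1 lie in a row on chromosome 10, 85.2 kb apart. The log2 fold changes along chromosome 9 were 0.025, -1.16 and -0.26.

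Of the 6 type IV chains, which build the basement membrane network, 0 had an unadjusted p under 0.05, and 3 lay below and 3 above a log2 fold change of 0. Col4a1 (chromosome 8, 11198423 to 11312826) had 41.2, 62.4 and 42.8 FPKM in wild-type and 62.2, 45.5 and 43.4 FPKM in deficient nerves. The highest values of the groups, in wild-type nerve 4 and deficient nerve 2, were nearly equal. Its log2 fold change was 0.052 (standard error 0.24) and changed sign with the scaling, to -0.11 with FPKM as deposited and -0.049 after scaling to the sum without haemoglobin, mitochondrial and muscle genes. Col4a2 (chromosome 8, 11312805 to 11449287) encodes the chain that pairs with Col4a1 in the common heterotrimer. Levels were 21.7, 34.8 and 27.6 FPKM in wild-type and 30.9, 23.1 and 23.0 FPKM in deficient nerves (log2 fold change -0.11, standard error 0.23). Wild-type nerve 4 and deficient nerve 2 were again the highest. The loci of this pair, which are read in opposite directions, overlap by 22 bases at their starts.

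The remaining type IV chains form networks found in fewer tissues and were near 1 FPKM or below. Col4a3 was at 0.927, 1.10 and 0.978 FPKM in wild-type and at 1.59, 1.02 and 1.37 FPKM in deficient nerves (log2 fold change 0.21, standard error 0.16). Col4a5 was at 0.702, 1.42 and 2.26 FPKM in wild-type and at 0.950, 0.765 and 1.06 FPKM in deficient nerves (log2 fold change -0.31, standard error 0.26). The genotypes overlapped for both. Col4a4 was between 0.275 and 0.519 FPKM over all libraries. Col4a6 did not overlap, at 0.114 to 0.493 FPKM in wild-type and 0.0586 to 0.109 FPKM in deficient nerves, but its log2 fold change was -0.20 (standard error 0.13) and its Cufflinks intervals overlapped. Its locus also overlaps Gm15079 on the other strand, and the counting's strand setting is not known.

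**Figure D2:**
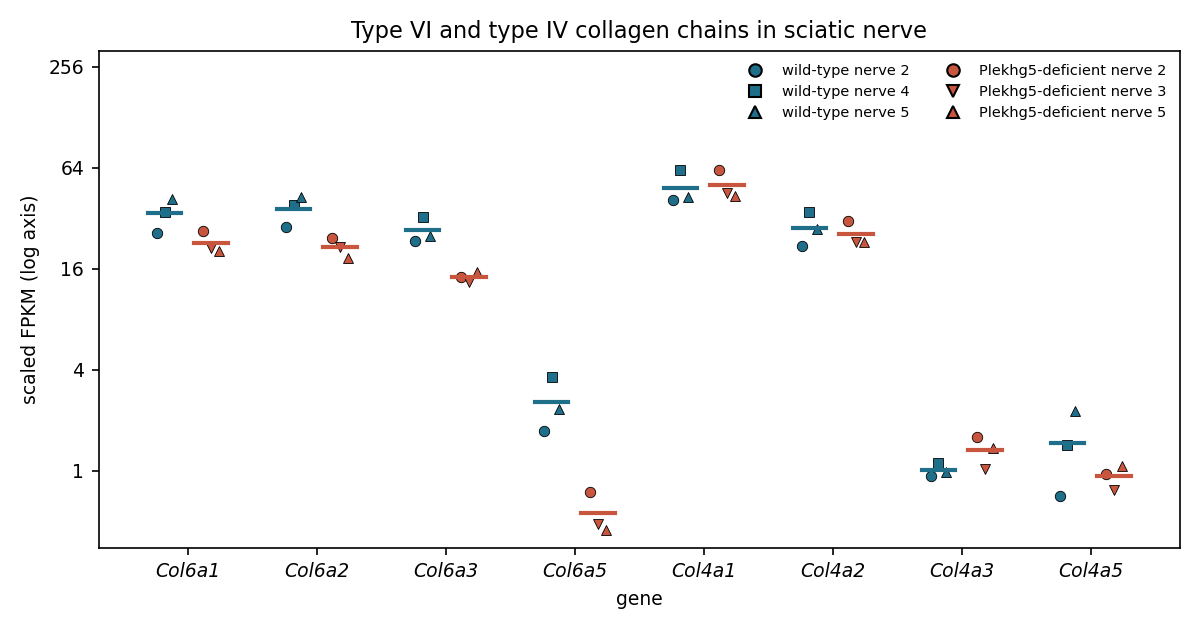
FPKM (log axis) of 4 type VI and 4 type IV chains in each nerve. Points are single nerves, with the shape giving the nerve number, and bars are means of 3 nerves. For Col6a2, Col6a3 and Col6a5 the deficient nerves all lie below the wild-type nerves, and for the type IV chains shown and for Col6a1 the genotypes overlap.

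The 11 fibrillar chains differed in sign among themselves, with 7 below and 4 above 0. Col1a1 and Col1a2 encode the chains of type I collagen, the main fibril protein of connective tissue. Col1a1 was at 65.2, 111 and 88.8 FPKM in wild-type and at 62.6, 70.2 and 43.6 FPKM in deficient nerves (log2 fold change -0.57, standard error 0.27). Col1a2 was at 99.2, 132 and 121 FPKM in wild-type and at 126, 107 and 70.6 FPKM in deficient nerves (log2 fold change -0.25, standard error 0.26). Both overlapped between genotypes, and deficient nerve 5 was the lowest library for each. Without both libraries numbered 5 the log2 fold changes were -0.37 and -0.00019.

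Col3a1, the chain of type III collagen that shares fibrils with type I, was at 68.4, 59.0 and 78.9 FPKM in wild-type and at 58.6, 44.2 and 25.2 FPKM in deficient nerves. The groups did not overlap, by a margin between wild-type nerve 4 and deficient nerve 2 that lay within the Cufflinks intervals. Its log2 difference was -0.75 (standard error 0.32, adjusted p = 0.972 by limma), and leaving out both libraries numbered 5 brought it to -0.33. Col5a2, a chain of type V collagen, which starts fibrils and limits their width, had the opposite sign. Levels were 10.6, 12.7 and 9.88 FPKM in wild-type and 21.3, 19.0 and 13.3 FPKM in deficient nerves, with no overlap after scaling. With FPKM as deposited, deficient nerve 5 lay within the wild-type range. The Cufflinks intervals also overlapped, reaching down to 12.2 FPKM in deficient nerves and up to 13.6 FPKM in wild-type nerves. The log2 fold change of Col5a2 was 0.63 (standard error 0.22, adjusted p = 0.938 by limma) and 0.73 without both libraries numbered 5. Its p before adjustment rose above 0.05 when wild-type nerve 2, wild-type nerve 5, deficient nerve 2 or deficient nerve 3 was left out, with FPKM as deposited (estimate 0.47), after scaling to the sum without haemoglobin, mitochondrial and muscle genes (0.53) and with the shared nerve numbers as a block (0.67). Col3a1 and Col5a2 are neighbours on chromosome 1 (45311538 to 45349706 and 45374321 to 45503282), read toward each other with a gap of 24.6 kb.

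The other type V chains overlapped between genotypes. Col5a1 was between 7.46 and 15.0 FPKM in wild-type and between 7.51 and 11.4 FPKM in deficient nerves (log2 fold change -0.29), and Col5a3 was between 7.71 and 11.7 FPKM and between 6.39 and 13.1 FPKM (0.14). Col24a1, a fibrillar gene named here after its values were seen, had the highest log2 fold change of all collagen genes. Levels were 8.76, 12.2 and 5.61 FPKM in wild-type and 23.0, 20.8 and 9.83 FPKM in deficient nerves (log2 fold change 0.91, standard error 0.39). Within each genotype the library numbered 5 was the lowest, and deficient nerve 5 lay below wild-type nerve 4.

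Col2a1, the main collagen of cartilage, was at a low level and was lower in each deficient nerve. Levels were 1.60, 2.18 and 1.71 FPKM in wild-type and 0.836, 0.766 and 0.688 FPKM in deficient nerves, 2.40-fold lower in the mean. Its log2 difference was -0.68 (standard error 0.16, adjusted p = 0.630 by limma), and -0.71 without both libraries numbered 5. The groups did not overlap, although the Cufflinks intervals of single libraries did. Of 12 markers of tendon and cartilage found in the tables, 7 had a log2 fold change below 0 and 4 above 0 (median -0.0014), and none of the 8 tested had an unadjusted p under 0.05. Their summed level was 23.5 to 35.9 FPKM in wild-type and 15.3 to 25.6 FPKM in deficient nerves, with overlap. It included Lect1, the older symbol of the cartilage gene Cnmd, at 16.8, 20.7 and 6.76 FPKM in wild-type and at 5.39, 12.1 and 3.45 FPKM in deficient nerves (log2 fold change -1.0, with overlap), and Sox9 (4.13 to 9.60 FPKM). Hapln1 reached 1.31 FPKM, and Acan and Matn1 were at 0.0106 FPKM or less in every library. The part of such tissue in the level of Col2a1 was not tested. The remaining fibrillar genes, Col11a1 (0.709 to 1.80 FPKM), Col27a1 (0.956 to 1.65 FPKM) and Col11a2 (0.0662 to 0.352 FPKM), overlapped between genotypes.

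**Figure D3:**
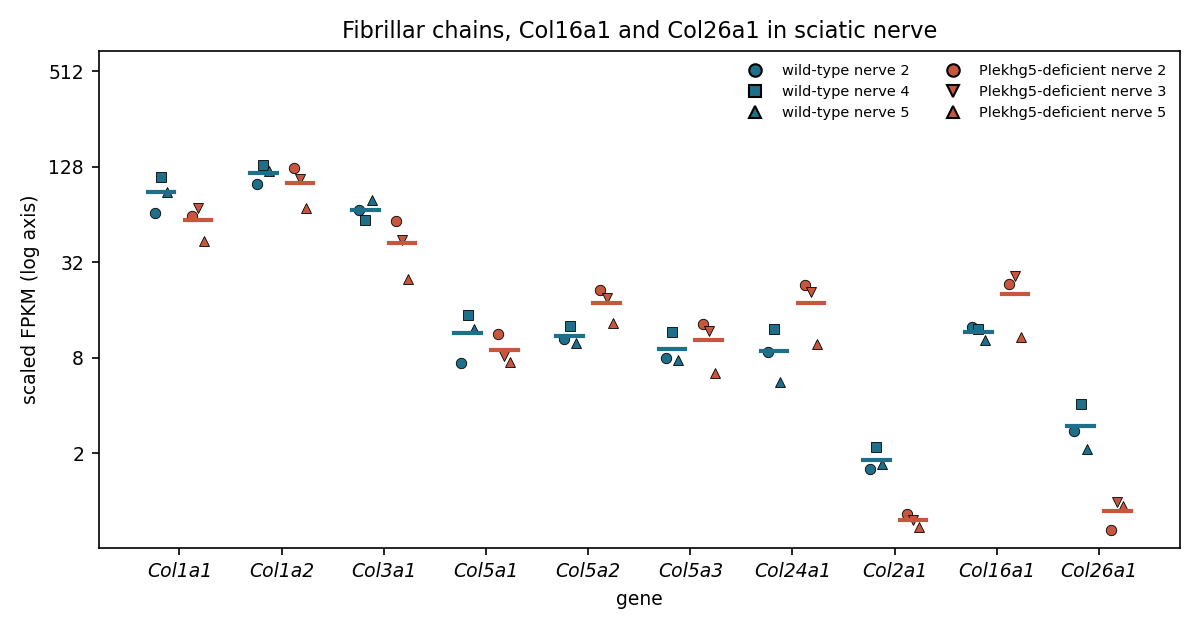
FPKM (log axis) of 8 fibrillar chains, the FACIT gene Col16a1 and Col26a1 in each nerve, with points for single nerves and bars for means of 3 nerves. Col3a1, Col2a1 and Col26a1 lie lower and Col5a2 lies higher in all 3 deficient nerves than in any wild-type nerve, and deficient nerve 5 (upward triangle) is the lowest library for Col1a1, Col1a2 and Col3a1.

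Among FACIT collagens, Col16a1 was at 12.5, 12.1 and 10.3 FPKM in wild-type and at 23.4, 26.1 and 10.9 FPKM in deficient nerves (log2 fold change 0.66, standard error 0.33). Deficient nerves 2 and 3 were above every wild-type nerve, and deficient nerve 5 lay within the wild-type range. Without deficient nerve 5 the log2 fold change was 1.03, and without both libraries numbered 5 it was 0.94. Col14a1 was at 9.10, 13.5 and 11.3 FPKM in wild-type and at 12.8, 11.5 and 11.5 FPKM in deficient nerves (log2 fold change 0.086). Its sign turned to -0.067 with FPKM as deposited and to -0.0087 after scaling to the sum without haemoglobin, mitochondrial and muscle genes. Col12a1 was at 4.60, 8.69 and 9.36 FPKM in wild-type and at 6.40, 7.12 and 5.66 FPKM in deficient nerves (-0.16). The genotypes overlapped for Col14a1 and Col12a1, both fibril-associated chains of dense connective tissue.

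Col9a2, a chain of the cartilage FACIT type IX, was at 0.834, 0.948 and 1.39 FPKM in wild-type and at 0.251, 0.597 and 0.298 FPKM in deficient nerves. The deficient values were all lower (log2 fold change -0.57, standard error 0.17, adjusted p = 0.806 by limma), with overlapping Cufflinks intervals. Its p before adjustment was above 0.05 without deficient nerve 2 (estimate -0.50) and without both libraries numbered 5 (-0.45). Its partner chains Col9a1 and Col9a3 were at no more than 0.0738 and 0.465 FPKM. The other FACIT genes, Col19a1, Col20a1 and Col22a1, were at no more than 0.420, 1.33 and 0.0414 FPKM, with overlap.

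Col15a1, a multiplexin at the border of basement membrane and fibrils, had the highest mean over the 6 libraries of all collagen genes. Levels were 114, 138 and 138 FPKM in wild-type and 115, 92.3 and 75.4 FPKM in deficient nerves (log2 fold change -0.48, standard error 0.21). Deficient nerve 2 was level with wild-type nerve 2, so the genotypes overlapped. Col18a1, the other multiplexin, was at 6.70, 8.80 and 11.9 FPKM in wild-type and at 9.09, 6.68 and 5.88 FPKM in deficient nerves (-0.29). Its locus overlaps Slc19a1 on the other strand. Without both libraries numbered 5 the log2 fold changes were -0.30 and 0.0070.

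Col26a1, a small collagen outside the main classes (chromosome 5, 136741759 to 136883209), had the second lowest log2 fold change among the collagens. Levels were 2.77, 4.08 and 2.14 FPKM in wild-type and 0.663, 0.992 and 0.935 FPKM in deficient nerves. The groups did not overlap, and the mean was 3.47-fold lower in deficient nerves. Its log2 difference was -1.08 (standard error 0.23, adjusted p = 0.540 by limma), and -1.31 without both libraries numbered 5. The Cufflinks intervals overlapped, reaching up to 1.87 FPKM in deficient nerves and down to 0.920 FPKM in wild-type nerves. Col28a1, a collagen with a von Willebrand factor type A domain like type VI, was at 3.11, 4.81 and 2.30 FPKM in wild-type and at 6.11, 5.85 and 3.04 FPKM in deficient nerves (log2 fold change 0.44, standard error 0.32). Deficient nerve 5 lay below 2 of the wild-type nerves. Col7a1, the anchoring fibril collagen of skin, was at 0.172, 0.0854 and 0.0495 FPKM in wild-type and at 0.0797, 0.0677 and 0.483 FPKM in deficient nerves, with overlap.

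The transmembrane collagens were led by Col23a1, at 11.8, 22.2 and 13.3 FPKM in wild-type and at 19.3, 16.6 and 9.82 FPKM in deficient nerves (log2 fold change -0.044). The genotypes overlapped. Col25a1 (0.0842 to 0.787 FPKM), Col13a1 (0.0298 to 0.332 FPKM) and Col17a1 (0.0202 to 0.249 FPKM) were near the limit of expression and overlapped between genotypes. The short-chain network collagens Col8a1 and Col8a2, found around vessels, were at 4.26, 6.08 and 5.87 and at 1.49, 1.92 and 0.926 FPKM, respectively, in the wild-type group. In deficient nerves they were at 5.24, 3.48 and 3.90 and at 0.990, 1.12 and 0.455 FPKM (log2 fold changes -0.30 and -0.40, with overlap). Col10a1, the remaining gene of this class and a marker of growth plate cartilage, was at no more than 0.108 FPKM and was not tested.

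Summed over the class, type VI chains made up 13.6, 13.8 and 15.6% of all collagen FPKM in the wild-type group (nerves 2, 4 and 5) and 9.74, 9.69 and 12.6% in deficient nerves 2, 3 and 5. The type VI share was thus lower in every deficient nerve. Fibrillar chains made up 45.6 ± 0.437% in wild-type and 45.5 ± 3.82% in deficient nerves (SD, n = 3 nerves). The FACIT share was 4.54 to 4.70% and 6.39 to 7.85%, with no overlap, and the type IV share was 10.3 to 12.7% and 12.1 to 15.99%, with overlap. The FACIT sum itself overlapped, at 27.8, 36.0 and 33.6 FPKM in wild-type and 43.6, 46.0 and 30.5 FPKM in deficient nerves. The sum over all collagen genes was 590, 793 and 725 FPKM in wild-type and 683, 586 and 434 FPKM in deficient nerves, which overlapped.

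A ratio of genes within a library does not depend on how libraries are scaled. The ratios below were chosen after the values had been seen and are given without a test. The sum of Col6a1, Col6a2 and Col6a3 over that of Col4a1 and Col4a2 was 1.24, 1.09 and 1.56 in wild-type and 0.706, 0.817 and 0.816 in deficient nerves. The type VI sum thus exceeded the type IV sum in each wild-type nerve and in no deficient nerve. The sum of Col1a1, Col1a2 and Col3a1 over the type IV pair was 3.70, 3.11 and 4.09 in wild-type and 2.65, 3.22 and 2.10 in deficient nerves, with overlap, and type VI over types I and III overlapped as well (0.335 to 0.381 and 0.254 to 0.389).

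Within trimers, Col4a1 over Col4a2 was 1.55 to 1.89 in wild-type and 1.89 to 2.01 in deficient nerves, and Col6a1 over Col6a2 was 0.905 to 0.981 and 0.986 to 1.11. The first pair overlapped and the second just failed to overlap. Col6a5 over Col6a3 was 0.0742, 0.110 and 0.0932 in wild-type and 0.0517, 0.0360 and 0.0289 in deficient nerves, so the alternative chain was also lower relative to the usual chain. Col5a2 over Col5a1 was 1.42, 0.848 and 0.809 in wild-type and 1.87, 2.31 and 1.77 in deficient nerves, and Col5a2 over its neighbour Col3a1 was 0.155, 0.216 and 0.125 and 0.364, 0.430 and 0.527. Col24a1 over Col1a1 was 0.0632 to 0.134 and 0.225 to 0.368. None of these last 3 ratios overlapped between genotypes. Other pairs that were computed did overlap. Within trimers, Col6a3 over Col6a1 was 0.5995 to 0.9383 in wild-type and 0.5338 to 0.7491 in deficient nerves. Col1a2 over Col1a1 was 1.191 to 1.522 and 1.519 to 2.008. Col3a1 over Col1a1, Col3a1 over Col1a2 and Col16a1 over Col12a1 overlapped as well. Col6a3 over Col4a1 was lower in deficient nerves without overlap.

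**Figure D4:**
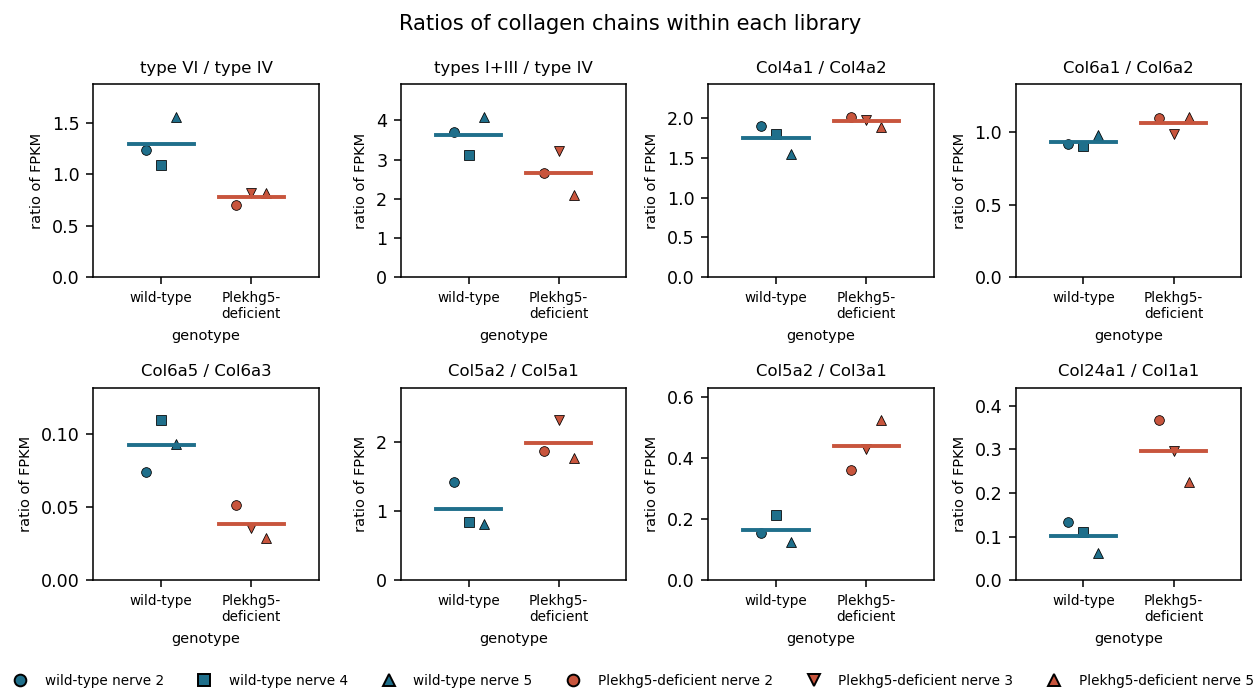
Ratios of FPKM within each library (vertical axes, from 0) for sums of chains and for pairs of genes, by genotype. Points are single nerves and bars are means of 3 nerves. Type VI over type IV and Col6a5 over Col6a3 are lower, and Col6a1 over Col6a2, Col5a2 over Col5a1, Col5a2 over Col3a1 and Col24a1 over Col1a1 are higher, in all deficient nerves, while types I and III over type IV and Col4a1 over Col4a2 overlap.

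Collagen chains are hydroxylated, folded by chaperones in the endoplasmic reticulum, trimmed by propeptidases and crosslinked by lysyl oxidases. Of 31 genes for these steps, all tested, none passed the adjusted p, 6 were lower with a p under 0.05 before adjustment, 0 were higher, and 26 had a log2 fold change below 0 (median -0.20). In 9 of the 31 all deficient values were below all wild-type values, and in 0 above. Over all genes tested the shares were 2.69% lower and 2.41% higher before adjustment, and 5.88% and 5.69% without overlap. Serpinh1 (chromosome 7, 99345375 to 99353230), which encodes the collagen-specific chaperone Hsp47, was at 75.1, 112 and 91.5 FPKM in wild-type and at 49.3, 41.6 and 44.5 FPKM in deficient nerves. The groups were well apart, and the mean was 2.06-fold lower in deficient nerves (92.9 ± 18.5 against 45.1 ± 3.89 FPKM, SD, n = 3 nerves). Its log2 difference was -1.01 (standard error 0.20, adjusted p = 0.481 by limma). Leprel4, the older symbol of P3h4, which assists collagen lysine hydroxylation, was at 8.52, 7.85 and 10.4 FPKM and at 5.07, 6.18 and 6.11 FPKM (-0.54).

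Propeptide removal was represented by Adamts2, the propeptidase of the amino end, and by Pcolce and Pcolce2, enhancers of the peptidase of the carboxyl end. Adamts2 was at 6.21, 7.34 and 7.39 FPKM in wild-type and at 4.88, 4.14 and 4.67 FPKM in deficient nerves (log2 fold change -0.52). Pcolce was at 178, 194 and 274 FPKM and at 143, 136 and 140 FPKM (-0.59), and Pcolce2 was at 9.76, 7.73 and 12.2 FPKM and at 4.84, 7.62 and 5.46 FPKM (-0.64). None of the 3 overlapped between genotypes, although wild-type nerve 4 and deficient nerve 3 were near each other for Pcolce2. The lysyl oxidases were mixed. Loxl2 was at 1.76, 2.18 and 2.47 FPKM in wild-type and at 0.883, 0.689 and 1.0 FPKM in deficient nerves (-0.75), whereas Lox was at 18.0, 41.9 and 36.3 FPKM and at 47.3, 37.1 and 35.7 FPKM (0.38, with overlap). P4hb, a subunit of the prolyl hydroxylase with wider use as a disulfide isomerase, was at 71.5, 69.6 and 79.1 FPKM and at 72.0, 56.7 and 83.0 FPKM.

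Of 16 genes for collagen receptors, 2 had a p under 0.05 before adjustment and a lower level, 0 a higher level (median log2 fold change -0.11), beside 2.69% and 2.41% of all genes tested. Mrc2, the endocytic collagen receptor of fibroblasts, was at 2.63, 4.49 and 4.05 FPKM in wild-type and at 1.83, 1.39 and 2.10 FPKM in deficient nerves (log2 fold change -0.76). Sdc1, a matrix-binding syndecan, was at 11.3, 12.6 and 15.5 FPKM and at 8.47, 7.24 and 9.65 FPKM (-0.57). Both were without overlap. The discoidin domain receptors Ddr1 and Ddr2 are tyrosine kinases that collagen activates, with log2 fold changes of -0.63 and -0.41. Ddr1 was at 7.68, 10.4 and 7.52 FPKM and at 6.64, 5.82 and 3.33 FPKM, without overlap, and Ddr2 was at 5.78, 6.52 and 7.10 FPKM and at 6.05, 3.35 and 4.79 FPKM, with overlap. Itgb1, the common chain of the collagen integrins, was at 60.7, 63.7 and 72.1 FPKM and at 75.7, 67.0 and 74.3 FPKM.

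**Figure D5:**
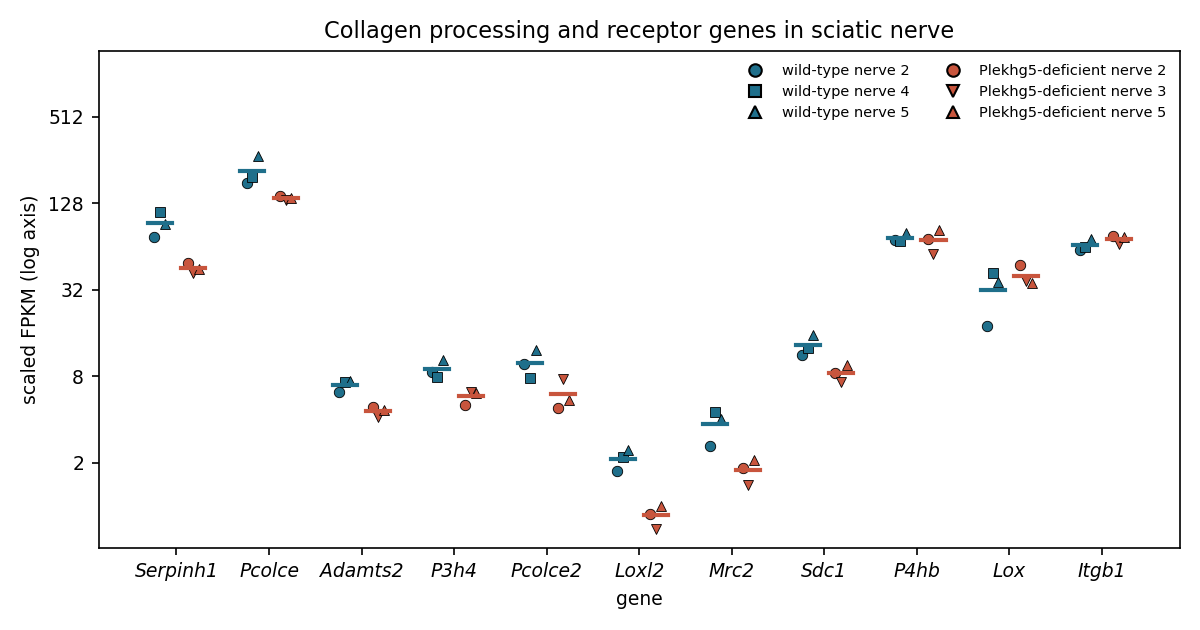
FPKM (log axis) of collagen processing genes and receptors in each nerve, with points for single nerves and bars for means of 3 nerves. Serpinh1, Pcolce, Adamts2, P3h4 (listed as Leprel4), Pcolce2, Loxl2, Mrc2 and Sdc1 lie lower in all deficient nerves, while P4hb, Lox and Itgb1 overlap between genotypes.

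In whole nerve, fewer cells of a type and less RNA per cell cannot be told apart. At an unadjusted p under 0.05, 2.69% of all genes tested were lower and 2.41% higher, and the marker counts below stand beside these shares. The summed level of 10 fibroblast markers was 3023, 3407 and 4398 FPKM in wild-type and 3370, 3161 and 2888 FPKM in deficient nerves. Of the 10, 1 was lower at that limit (Sfrp2, log2 fold change -1.51, adjusted p = 0.893 by limma). The summed level of 7 perineurial markers was 360, 500 and 449 FPKM and 403, 318 and 300 FPKM, also with 1 of 7 lower (Lypd2, 106, 119 and 128 against 49.3, 58.0 and 37.9 FPKM, log2 fold change -1.28, adjusted p = 0.334 by limma). Both sums overlapped between genotypes. The fibroblast sum was mostly Dcn, at 1702.5 to 2840.5 FPKM per library, so it says little about the other markers. Of the fibroblast markers, 8 had a log2 fold change below 0 and 2 above (median -0.18). For the perineurial markers the counts were 6 and 1 (median -0.12). Among 8 smooth muscle and pericyte markers all 8 had a log2 fold change below 0 and none an unadjusted p under 0.05, with sums of 452 to 2003 and 475 to 1296 FPKM. Of the 10 Schwann cell markers, 2 were higher and 0 lower at an unadjusted p under 0.05, while 5 had a log2 fold change below 0 and 5 above. Their sums were 10896, 19689 and 12329 FPKM in wild-type and 19120, 19473 and 11439 FPKM in deficient nerves.

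Of the 28 collagen genes averaging 1 FPKM or more over the 6 libraries, 7 had wild-type nerve 4 and deficient nerves 2 and 3 as their 3 highest libraries, the libraries in which the Schwann cell sum was highest (Col24a1, Col5a3, Col27a1, Col4a1, Col14a1, Col23a1 and Col28a1). That is 25.0%, beside 9.3% of the 14964 genes tested with such a mean. Deficient nerve 5, the library richest in haemoglobin, was the lowest for 13 of the 28 (46.4%, beside 23.9% of those genes), and wild-type nerve 4 was the highest for 15 (53.6%, beside 16%). In 6 of the 28 the deficient nerves were all lower and in 1 all higher, beside 5.46% and 5.72% of those genes. Wild-type nerve 4 and deficient nerves 2 and 3 were also the 3 lowest libraries for 3 other marker sums. Skeletal muscle markers summed to 3306, 3002 and 360 FPKM there, and erythroid markers to 8826, 8012 and 4056 FPKM. Smooth muscle and pericyte markers summed to 452, 675 and 475 FPKM. Which of these sums, if any, the 7 genes follow was not tested. The part of cell composition in the differences described above was not tested.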

How the data were processed

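Gene tables of 6 whole sciatic nerves were used. The authors trimmed reads with Trim Galore 0.4.0, mapped them to GRCm38 with STAR and deposited FPKM per gene with 95% intervals from Cufflinks 2.2.1, per library. FPKM hold no counts. Annotation release, strand setting and depth: not given in the sources used here. Libraries were scaled by median-of-ratios factors (0.745 to 1.12). Genes averaging 0.1 FPKM or more in a genotype were fitted as log2(FPKM + 1) on genotype alone, with limma 3.58.1 (R 4.3.3), a trended variance and p-values adjusted by Benjamini-Hochberg, and the fit was tested on simulated data. The paper reports 3 animals per genotype, and each library is taken as a separate animal. The p-values set the genotype difference against the spread between libraries within a genotype.

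Named genes were Plekhg5, the 4 most abundant chains per class, chains with an unadjusted p under 0.05 or, averaging 1 FPKM or more in a genotype, no overlap, and the processing and receptor genes with an unadjusted p under 0.05 or, where under 4, the 4 of smallest p. P4hb, Lox, Itgb1, Lypd2, Col24a1 and others were added after their values were seen. The members and lists were chosen with earlier results of these data known. Alternatives were other pseudocounts (0.1 and 0.5), filters, scalings, variance settings, a replicate block and leaving out libraries. Upstream windows came from RefSeq, for 35 of the 44 genes. Plots were drawn with matplotlib 3.10.9.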

Additional observations from a re-analysis of the deposited data

How the results depend on the processing

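The number of collagen genes with an adjusted p under 0.05 was 0 in every alternative run. Over all genes, 8 were called, 2 with no filter on low values, 22 with array weights and 0 to 5 when a library was left out. Collagens lower at an unadjusted p under 0.05 numbered 7, 6 to 8 without a library and 4 (Col6a3, Col6a5, Col2a1 and Col26a1) without both libraries numbered 5, an alternative chosen after the data had been seen. Collagens higher numbered 1, 0 with FPKM as deposited and after scaling to the sum without haemoglobin, mitochondrial and muscle genes, 2 with upper quartile scaling, 3 with array weights, 3 without both libraries numbered 5 and 0 to 3 without a library. The type VI median was -0.64, -0.45 with array weights, -0.43 without both libraries numbered 5 and -0.80 to -0.51 without a library. Without a library the fibrillar median was -0.39 to -0.11 and the type IV median -0.16 to 0.055. The causes of these shifts were not tested.

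Nerve numbers 2 and 5 occur in both genotypes, and the labels do not tie same-numbered nerves. Their deviations correlated over genes at 0.0730 for number 2 and 0.580 for number 5, the highest of the 9 pairs, beside -0.522 to 0.457 for the others, and with fewer than 3 shared numbers they were not taken as pairs. With the replicate block, which keeps the 2 shared numbers, 0 genes were called, 5 collagens were lower (Col6a3, Col6a4, Col6a5, Col9a2 and Col26a1) and 1 was higher (Col24a1, not Col5a2) at an unadjusted p under 0.05, and the medians were -0.58 for type VI and 0.13 for type IV. Under the block Col4a2 (0.12), Col23a1 (0.13) and Col13a1 (-0.035) changed sign.

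For 44 genes named in the text, Plekhg5 included, 788 values were computed under an alternative. Plekhg5 lost its adjusted call in 9, and as no other of these genes had such a call, the rest bear on direction alone, which changed in 29. These were P4hb (0.039 with the block), Itgb1 (-0.022 as deposited), Col4a1 (-0.11 as deposited, -0.049 with the sum scaling), Col4a2 (0.022 with array weights), Col14a1 (-0.067 and -0.0087 under those scalings), Col13a1 (-0.014 as deposited), and with array weights Col18a1 (0.0025), Col23a1 (0.12) and Col7a1 (-0.0091). Without both libraries numbered 5 they were Col12a1 (0.060), Col18a1 (0.0070), Col23a1 (0.12) and Col7a1 (-0.077). Without a library P4hb ranged from -0.20 to 0.073, Col4a1 from -0.11 to 0.24, Col4a2 from -0.27 to 0.049, Col14a1 from -0.041 to 0.21, Col23a1 from -0.23 to 0.22, Col13a1 from -0.088 to 0.095 and Col7a1 from -0.039 to 0.20. At an unadjusted p under 0.05, Serpinh1, Loxl2 and Lypd2 were lower in every alternative, whereas Leprel4, Adamts2, Pcolce, Pcolce2, Mrc2, Sdc1 and Col6a1 were not when some single libraries were left out. FPKM + 1 damps changes of chains below 1 FPKM, and the tables hold no counts from which their precision could be derived.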
